A study of Homo sapiens with 23 samples.

Results

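The HOXA genes examined here are 9 members of the HOXA cluster, HOXA2, HOXA3, HOXA4, HOXA5, HOXA7, HOXA9, HOXA10, HOXA11 and HOXA13, taken by name, with earlier results of these data known. They are 9 of the 21463 gene rows in the authors' deposited table, and all 9 have a level, a fold and an adjusted p (q) in each of the 4 comparisons. HOXA6 belongs to the same cluster but not to the chosen set, and its values are given once beside it. The samples were cells of PC-3, an established line from a bone metastasis of human prostate cancer, carrying a lentiviral TetOne construct with PARG cDNA and a cleavable mClover3. PARG is the enzyme that takes poly(ADP-ribose) chains off proteins. The groups with 500 ng/ml doxycycline for 72 hours and the groups without it came from 2 single clones, H6 and I4, each examined in experiment N (passage 5) and experiment B (passage 7, another kit and sequencing centre). This made 8 groups of 3 wells, except 2 wells for untreated H6 in experiment B, 23 libraries in all. Each clone is a single isolate, all groups carry the construct, and cells without it were not analysed here, so an effect of doxycycline itself and one of PARG cannot be told apart.

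HOX genes encode homeodomain transcription factors that give cells their position along the body axis. They lie in clusters in the order in which they act: genes at the 3' end of a cluster work in anterior tissue, and those at the 5' end, related to the fly gene Abdominal-B, work in posterior tissue such as the urogenital tract. Polycomb proteins keep clusters silent, Trithorax proteins such as KMT2A keep them active, and HOX proteins bind DNA together with PBX and MEIS partners. In mice Hoxa13 and Hoxa10 take part in forming the genital tract and the male accessory glands. A HOX pattern is usually retained in cultured cells, including cancer lines.

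The cluster occupies 99.8 kb of chromosome 7 on GRCh38 from HOXA2 to HOXA13, and all 9 genes are read from the minus strand, so the 5' end of the cluster lies at the higher coordinates. By GENCODE v29, HOXA2 lies at 27100354 to 27102811, HOXA3 at 27106184 to 27152581, HOXA4 at 27128507 to 27130799 and HOXA5 at 27141052 to 27143668, the last 2 within the span of HOXA3. HOXA7 lies at 27153716 to 27157936. HOXA9 (ENSG00000078399) lies at 27162435 to 27175180 and HOXA10 (ENSG00000253293) at 27170591 to 27180261. HOXA11 (ENSG00000005073) lies at 27181510 to 27185223 and HOXA13 (ENSG00000106031) at 27193503 to 27200106.

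The 250 bases before the RefSeq start of 3 of the genes that rose are shown first, since the results below turn on this end of the cluster (GRCh38.p14, minus strand, 5' to 3'). Capitals mark matches on either strand to 5 motifs, and no matches overlap. A GC box was searched for as GGGCGG, and a CCAAT box by the letters of its name. TATAAA stood for the TATA box, to which the general transcription machinery binds. A joint site of HOX and PBX proteins was searched for as TGATTNAT, and one of the dimeric factor AP-1 was searched for as TGANTCA. The windows are chr7:27165538-27165787 for HOXA9, chr7:27185233-27185482 for HOXA11 and chr7:27200092-27200341 for HOXA13.
HOXA9: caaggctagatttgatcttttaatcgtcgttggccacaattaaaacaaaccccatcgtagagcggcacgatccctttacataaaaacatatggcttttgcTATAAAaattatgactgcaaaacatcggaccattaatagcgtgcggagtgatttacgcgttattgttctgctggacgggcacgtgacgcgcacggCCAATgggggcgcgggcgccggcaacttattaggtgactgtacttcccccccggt
HOXA11: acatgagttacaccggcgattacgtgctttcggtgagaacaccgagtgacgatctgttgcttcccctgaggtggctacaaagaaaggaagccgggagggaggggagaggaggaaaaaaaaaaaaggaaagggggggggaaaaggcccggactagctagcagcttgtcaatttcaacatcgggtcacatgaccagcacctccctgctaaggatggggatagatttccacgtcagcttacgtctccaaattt
HOXA13: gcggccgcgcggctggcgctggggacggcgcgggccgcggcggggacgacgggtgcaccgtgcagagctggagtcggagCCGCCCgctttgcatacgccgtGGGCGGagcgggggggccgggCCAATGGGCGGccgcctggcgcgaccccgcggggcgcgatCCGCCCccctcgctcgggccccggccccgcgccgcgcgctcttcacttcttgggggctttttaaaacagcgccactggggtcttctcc

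These windows were unlike in composition although the genes are neighbours. The HOXA13 window was 78.0% G or C with 40 CpG pairs, 4 GC boxes and 1 CCAAT box. The HOXA9 window was 48.8% G or C with 20 CpG pairs, 1 CCAAT box and 1 TATA box, and the HOXA11 window was 51.6% G or C with 11 CpG pairs and none of the 5 motifs. The HOXA11 window lies within exons of its antisense gene HOXA11-AS. RefSeq gives 2 windows for HOXA10, not shown. The first, within an exon of HOXA10 itself, was 58.8% G or C with 19 CpG pairs, 1 CCAAT box and 1 TATA box. The second, which meets no exon, was 65.2% G or C with 24 CpG pairs, 1 CCAAT box and 1 TATA box. Over 35116 RefSeq windows of this length the median was 58.0% G or C with 11 CpG pairs. A GC box occurred in 42.6% of them, a CCAAT box in 32.0%, a TATA box in 10.7%, an AP-1 site in 6.6% and a HOX-PBX site in 2.5%. No one motif of the 5 was present in the windows of all 4 genes.

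The authors' deposited table holds group means and no value per well, so levels carry no SD here and the authors' q is the only measure of significance. The wells of a group come from 1 clone, so q can reflect only the spread between wells. For each comparison the deposited table gives whichever group mean was higher. Its scale was taken as RPKM, that is reads per exon kilobase and per mega (M) of library reads. The lower mean was obtained by dividing the higher one by the fold and is approximate. Folds are taken as doxycycline over none because PARG, the induced gene, is positive throughout, with deposited folds of 1.35 (I4) and 2.15 (H6) in experiment N and 1.40 (I4) and 1.99 (H6) in experiment B. On that scale depth was about 37.0 to 37.4 M reads per library in experiment N and about 22.1 to 23.2 M in experiment B. At this resolution more transcript per cell and more cells with the transcript cannot be told apart. The epithelial keratins KRT8 and KRT18 stood at 25.1 to 55.9 and 101 to 127 RPKM and EPCAM at 4.77 to 5.66 RPKM, but CDH1 at 0.332 to 0.394 RPKM. KLK3, the gene of prostate-specific antigen, was at most 0.00695 RPKM. Of the markers of other cell types, PTPRC, CD3E, CDH5, VWF, PDGFRB and DCN were at most 0.0515 RPKM. CD68 at 16.1 to 27.4 RPKM, COL1A1 at 6.23 to 17.7 RPKM, PECAM1 at 0.719 to 1.34 RPKM and COL1A2 at 0.189 to 0.314 RPKM were present. A gene was called at a q under 0.05.

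The 5' end of the cluster was the active end in these cells. HOXA9 had the highest level of the 9 genes in all 8 groups, with a median of 19.3 RPKM and a range of 16.2 to 26.4 RPKM. HOXA11 followed at 11.1 to 16.4 RPKM, HOXA13 at 6.97 to 13.5 RPKM and HOXA10 at 5.88 to 13.6 RPKM, and these 3 changed places with each other between groups. HOXA3 came next in all 8 groups, at 2.32 to 4.16 RPKM. HOXA4 at 1.67 to 2.37 RPKM and HOXA5 at 1.44 to 2.35 RPKM changed places between groups. HOXA2 was at 0.659 to 1.04 RPKM and HOXA7, in the middle of the cluster, was lowest in all 8 groups at 0.311 to 0.709 RPKM. Without values per well, differences between neighbours in this order could not be tested. HOXA6, outside the set, stood at 0.660 to 1.88 RPKM.

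**Figure D1:**
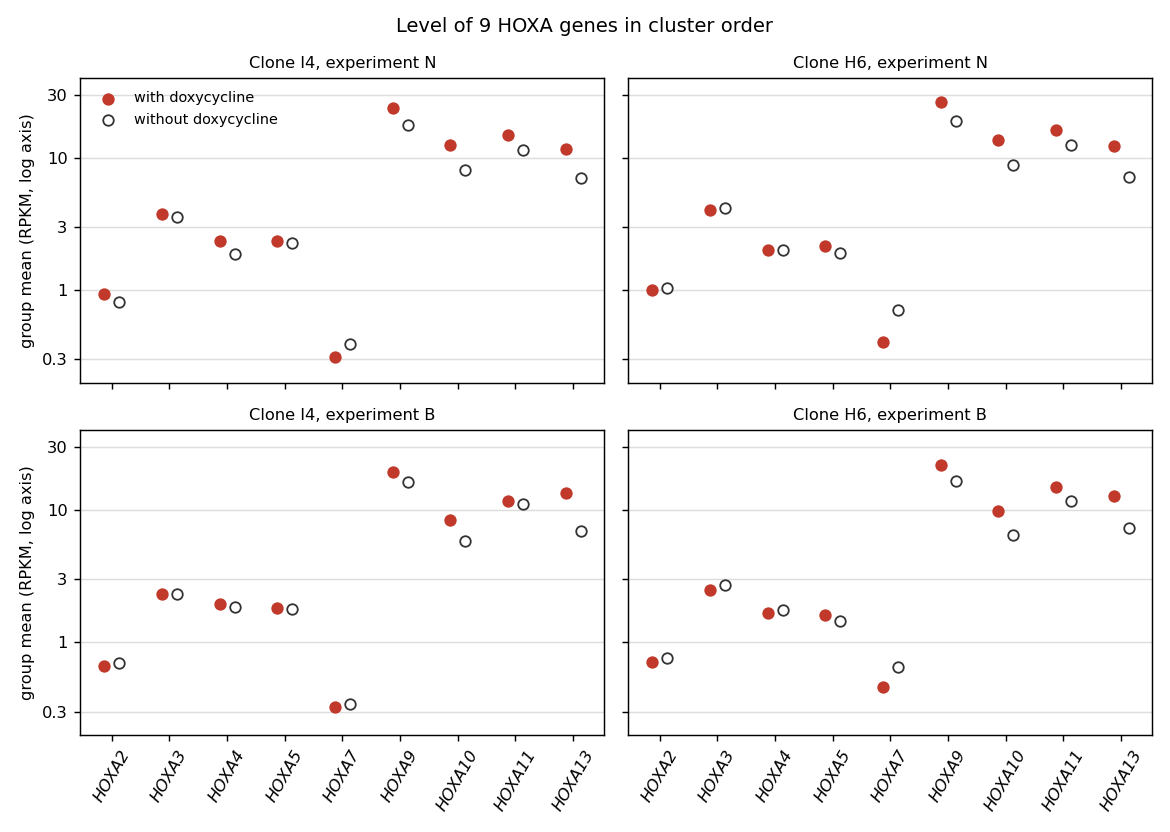
Group means of the 9 HOXA genes in RPKM on a log axis, in cluster order from the 3' end (left) to the 5' end (right), with doxycycline (filled red) and without (open), in each clone and experiment; single points are group means without error bars. HOXA9 to HOXA13 stand at 5.88 RPKM or more in every group and HOXA2 to HOXA7 at 4.16 RPKM or less, and the filled points lie above the open ones at the 5' end.

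Doxycycline was accompanied by higher levels of the genes at the 5' end of the cluster, in both clones, and by no call at its 3' end. HOXA9, HOXA10 and HOXA13 rose in all 4 comparisons, HOXA11 rose in 3, HOXA7 fell in 1, and HOXA2, HOXA3, HOXA4 and HOXA5 were not called in any. By the q of the authors' deposited table, 4 of the 9 genes were called higher in I4 in experiment N, where 7.18% of all genes tested were called higher. In H6 in experiment N 4 were called higher, beside 6.57% of all genes, and 1 was called lower, beside 7.07%. In I4 in experiment B 3 were called higher (7.46% of all genes), and in H6 in experiment B 4 were called higher (3.63% of all genes). None was called lower in the other comparisons, in which 8.53% of all genes were called lower in I4 in experiment N, 6.59% in I4 in experiment B and 3.93% in H6 in experiment B. Of 15063 genes tested in all 4 comparisons, 1.73% were called higher in each and 1.97% lower in each; for the 9 HOXA genes these counts were 3 and 0.

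The median log2 fold of the 9 genes was 0.33 (I4) and 0.19 (H6) in experiment N, and 0.08 (I4) and 0.15 (H6) in experiment B, from the authors' deposited table. The median over all genes tested lay between 0.002 and 0.011. The 4 genes HOXA9 to HOXA13 had median log2 folds of 0.53 (I4) and 0.54 (H6) in experiment N and 0.40 (I4) and 0.51 (H6) in experiment B. The 4 genes HOXA2 to HOXA5 had medians of 0.14 (I4) and -0.02 (H6) in experiment N and 0.01 (I4) and -0.08 (H6) in experiment B. This split of the cluster was drawn with the folds known and was not tested. Across the 9 genes Spearman's rho between order in the cluster and log2 fold was 0.67 (I4) and 0.78 (H6) in experiment N, and 0.75 (I4) and 0.77 (H6) in experiment B; the genes share their libraries.

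**Figure D2:**
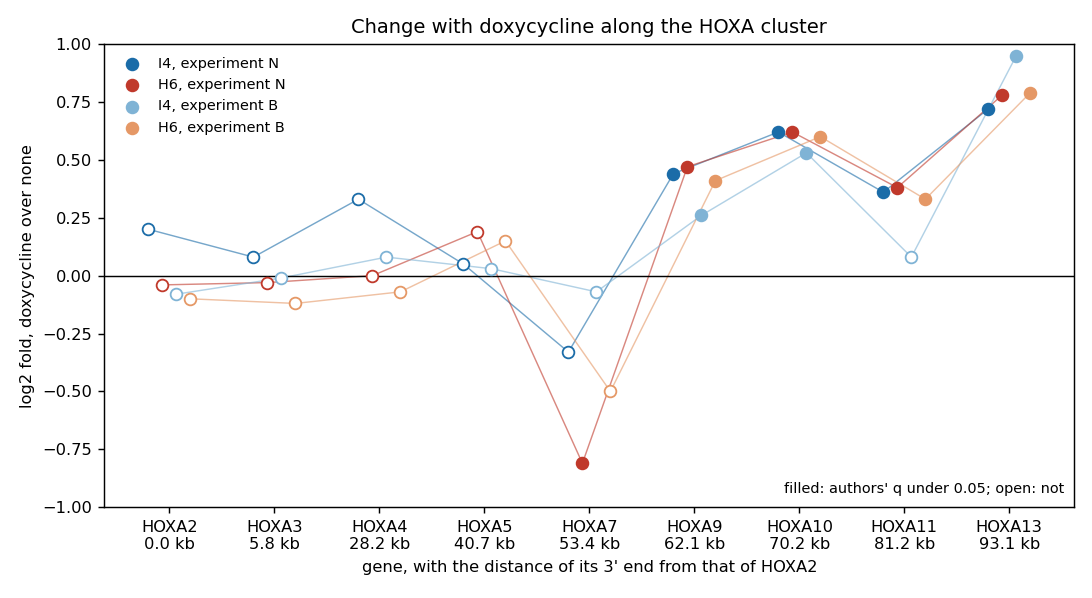
Log2 fold of doxycycline over none (vertical axis) for the 9 HOXA genes in cluster order, with the distance of each 3' end from that of HOXA2 in kb, for each clone and experiment by colour; filled points have an authors' q under 0.05 and lines only join points of a comparison. HOXA2 to HOXA5 lie between -0.12 and 0.33 with no filled point, and HOXA13 lies between 0.72 and 0.95 with 4 filled points.

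HOXA13, the most 5' gene of the cluster and a regulator of urogenital and limb formation, had the largest rise of the 9 genes in all 4 comparisons. In I4 it stood at 11.7 RPKM with doxycycline and 7.09 RPKM without it in experiment N, and at 13.5 RPKM with doxycycline and 6.97 RPKM without it in experiment B. In H6 it stood at 12.4 RPKM with doxycycline and 7.22 RPKM without it in experiment N, and at 12.7 RPKM with doxycycline and 7.33 RPKM without it in experiment B. All 4 levels with doxycycline were above all 4 without it, but how many of all genes show this was not counted. In the authors' deposited table HOXA13 was 1.65-fold (I4) and 1.72-fold (H6) higher in experiment N. In experiment B it was 1.94-fold (I4) and 1.73-fold (H6) higher, each of the 4 folds with a q listed as 0. Only 1.7% of its exon length is shared with another gene, HOTTIP on the opposite strand. About 4490 to 7023 reads lie behind the higher mean of each comparison.

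HOXA10, which patterns the reproductive tract, rose by nearly the same fold in every comparison. In I4 it stood at 12.6 RPKM with doxycycline and 8.17 RPKM without it in experiment N, and at 8.47 RPKM with doxycycline and 5.88 RPKM without it in experiment B. In H6 it stood at 13.6 RPKM with doxycycline and 8.89 RPKM without it in experiment N, and at 9.87 RPKM with doxycycline and 6.50 RPKM without it in experiment B. Levels with and without doxycycline overlapped across experiments, since the level in I4 with doxycycline in experiment B lay below that of untreated H6 in experiment N. In the authors' deposited table HOXA10 was 1.54-fold (I4) and 1.53-fold (H6) higher in experiment N, with a q listed as 0, and 1.44-fold (I4, q = 2.67e-08) and 1.52-fold (H6, q = 1.49e-08) higher in experiment B. HOXA10-AS, on the opposite strand, shares 16.4% of the HOXA10 exon length and 13.9% of that of HOXA9, which experiment N could not separate.

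HOXA9, a posterior HOX protein known for its part with MEIS1 in acute leukaemia, was the most abundant of the 9 and rose in every comparison, by smaller folds than HOXA10 and HOXA13. In I4 it stood at 24.0 RPKM with doxycycline and 17.7 RPKM without it in experiment N, and at 19.5 RPKM with doxycycline and 16.2 RPKM without it in experiment B. In H6 it stood at 26.4 RPKM with doxycycline and 19.1 RPKM without it in experiment N, and at 21.9 RPKM with doxycycline and 16.5 RPKM without it in experiment B. All 4 levels with doxycycline were above all 4 without it, but only narrowly. The closest were 19.5 RPKM in treated I4 in experiment B and 19.1 RPKM in untreated H6 in experiment N. The levels without doxycycline are approximate, and how many of all genes show such a separation was not counted. In experiment N the authors' deposited table gives HOXA9 a rise of 1.36-fold in I4 (q = 6.55e-08) and 1.39-fold in H6 (q = 0.000175). In experiment B the deposited table gives 1.20-fold in I4 (q = 0.00974) and 1.33-fold in H6 (q = 0.000106). A read-through gene, AC004080.3, shares part of the 15.9% of HOXA9 exon length and the 9.9% of HOXA10 exon length that lie in other genes of the same strand, and its level was at most 0.228 RPKM in any group.

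HOXA11, which acts in kidney, uterus and limb, rose in 3 of the 4 comparisons. In I4 it stood at 14.9 RPKM with doxycycline and 11.6 RPKM without it in experiment N, and at 11.7 RPKM with doxycycline and 11.1 RPKM without it in experiment B. In H6 it stood at 16.4 RPKM with doxycycline and 12.6 RPKM without it in experiment N, and at 14.9 RPKM with doxycycline and 11.8 RPKM without it in experiment B. In the authors' deposited table HOXA11 was 1.29-fold (I4, q = 3.45e-05) and 1.30-fold (H6, q = 1.03e-05) higher in experiment N. In experiment B the deposited table gives H6 a rise of 1.26-fold (q = 0.00705). For I4 in the same experiment it gives 1.05-fold with q = 0.866. Whether this fold differs from the other 3 could not be tested. Within each comparison the level with doxycycline was the higher one, but 11.7 RPKM in I4 with doxycycline in experiment B lay below 12.6 RPKM in untreated H6 in experiment N. HOXA11-AS, on the opposite strand, shares 31.1% of the HOXA11 exon length, and libraries of experiment N keep no strand, so reads of both cannot be told apart there.

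The 9-gene order is interrupted by HOXA7, a gene of the central group that lies between HOXA5 and HOXA9 and was the lowest of the 9. Its level was 0.405 RPKM with doxycycline and 0.709 RPKM without it in H6 in experiment N, and 0.461 RPKM with doxycycline and 0.653 RPKM without it in H6 in experiment B. In I4 it was 0.311 RPKM with doxycycline and 0.391 RPKM without it in experiment N, and 0.323 RPKM with doxycycline and 0.340 RPKM without it in experiment B. HOXA7 was thus below its untreated level in all 4 comparisons, but passed the authors' test in 1, H6 in experiment N, where the deposited table gives 1.75-fold lower with q = 0.0259. Whether the 4 folds differ from each other could not be tested. The other folds in the deposited table were 1.26-fold lower (I4, experiment N, q = 0.795), 1.05-fold lower (I4, experiment B, q = 1.00) and 1.42-fold lower (H6, experiment B, q = 0.596). About 54.4 to 190 reads over the wells of a group lie behind the higher mean, and 62.5% of the HOXA7 exon length is shared with HOXA-AS3 on the opposite strand, which experiment N could not separate.

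At the 3' end HOXA5, a regulator of lung development, was 1.02-fold to 1.14-fold higher in the 4 comparisons of the authors' deposited table, with q between 0.712 and 1.00. HOXA4 had ratios of doxycycline over none from 0.95 to 1.26, the highest in I4 in experiment N, at 2.37 RPKM with doxycycline and 1.88 RPKM without it (q = 0.280 in the authors' deposited table). HOXA3, needed for thymus and parathyroid in mice, had ratios from 0.92 to 1.06, with q of 0.753 or more. HOXA2, which specifies the second pharyngeal arch, had ratios from 0.94 to 1.15, with q of 0.833 or more. Other genes of the same strand share 31.0% of the HOXA4 exon length and 9.2% of that of HOXA3. Genes of the opposite strand, which experiment N could not separate, share 16.3% (HOXA4) and 15.4% (HOXA3). HOXA2 and HOXA5 share no exon length with other genes. About 542 to 1988 reads lie behind each higher mean of HOXA3, and 87.2 to 464 behind those of HOXA2, HOXA4 and HOXA5, so folds of the size seen for HOXA9 were less precisely measured in these genes. A q above the threshold does not show that their levels were the same.

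The 5' genes made up more of the cluster's summed level with doxycycline than without it. HOXA9, HOXA10, HOXA11 and HOXA13 summed to 63.2 RPKM of 72.9 RPKM over the 9 genes with doxycycline in I4 in experiment N (86.6%), and to 44.5 of 53.5 RPKM without it (83.3%). In H6 in experiment N their share was 87.7% with doxycycline and 82.9% without it. In experiment B it was 88.2% with doxycycline and 85.1% without it in I4, and 89.5% with doxycycline and 85.2% without it in H6. This is arithmetic on the levels above and not a separate result.

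Genes that flank the cluster were mostly not called. Of 4 such genes, 1 was called higher in I4 in experiment N and 1 in H6 in experiment B. Over all genes tested, 7.18% and 3.63% were called higher in these comparisons, so the count says little about so short a list. SKAP2, beyond the 3' end, was 1.01-fold to 1.10-fold higher in 3 comparisons and 1.02-fold lower in H6 in experiment N, with q of 0.279 or more in the authors' deposited table. EVX1, a homeobox gene just beyond HOXA13, was at most 0.0866 RPKM and was not called. HIBADH rose in I4 in experiment N (1.26-fold, q = 0.0143), and TAX1BP1 rose in H6 in experiment B (1.18-fold, q = 0.0443), in the authors' deposited table. Neither was called in the other 3 comparisons, but both lay above their untreated level there too. These folds were 1.01 to 1.18 for HIBADH and 1.06 to 1.12 for TAX1BP1. HOXA6 was not called in any comparison, with q of 0.360 or more in the deposited table. The 6 noncoding RNAs of the cluster that were looked up have no row under their names in the authors' deposited table. They include HOXA-AS3, HOXA10-AS and HOXA11-AS, so the levels of these antisense genes could not be examined.

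Among the other HOX clusters, the group 13 genes HOXB13 and HOXC13 were higher with doxycycline in all 4 comparisons, as was HOXA13. HOXD13, also of group 13, was lower in all 4, with log2 folds of -0.57 to -0.22 in the authors' deposited table. Its level was at most 0.180 RPKM and it was not called. HOXB9 was lower and HOXA9 higher in all 4. Of 10 HOXB genes, 9 were tested, and in all 4 comparisons 1 was called higher, HOXB13, and 1 lower, HOXB9, both named after their values were seen. Over all genes tested in all 4 comparisons, 1.73% were called higher in each and 1.97% lower in each. HOXB13, a prostate lineage factor, stood at 63.0 to 83.4 RPKM with doxycycline and 34.3 to 59.7 RPKM without it, and its log2 folds in the authors' deposited table ran from 0.48 to 0.88, beside 0.72 to 0.95 for HOXA13. HOXB9 stood at 0.593 to 1.98 RPKM with doxycycline and 1.08 to 3.29 RPKM without it, and had log2 folds of -0.87 to -0.58 in the authors' deposited table, where HOXA9 had 0.26 to 0.47. HOXC13, which had the highest mean of the deposited levels among HOXC genes but lay below HOXC6 or HOXC8 in 3 of the 4 untreated groups, rose in I4 by 1.51-fold in experiment N (q = 1.19e-05) and 1.43-fold in experiment B (q = 5.19e-05) in the authors' deposited table. In H6 the deposited table gives HOXC13 1.11-fold in experiment N (q = 0.608) and 1.12-fold in experiment B (q = 0.874), neither called. HOXC8 fell in experiment B in both clones (1.42-fold lower in I4 and 1.47-fold lower in H6) and was not called in experiment N, and HOXC6 fell in H6 in experiment B (1.47-fold lower) and was not called elsewhere, in the deposited table. Of 9 HOXC genes none was called in all 4 comparisons, which at the shares over all genes given above says little about so short a list. No HOXD gene reached 1 RPKM; HOXD4 was called in I4 in experiment N (1.94-fold higher, q = 0.0202 in the authors' deposited table), while HOXD8 and HOXD13 were not called. The differences between clusters and between clones were not tested.

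**Figure D3:**
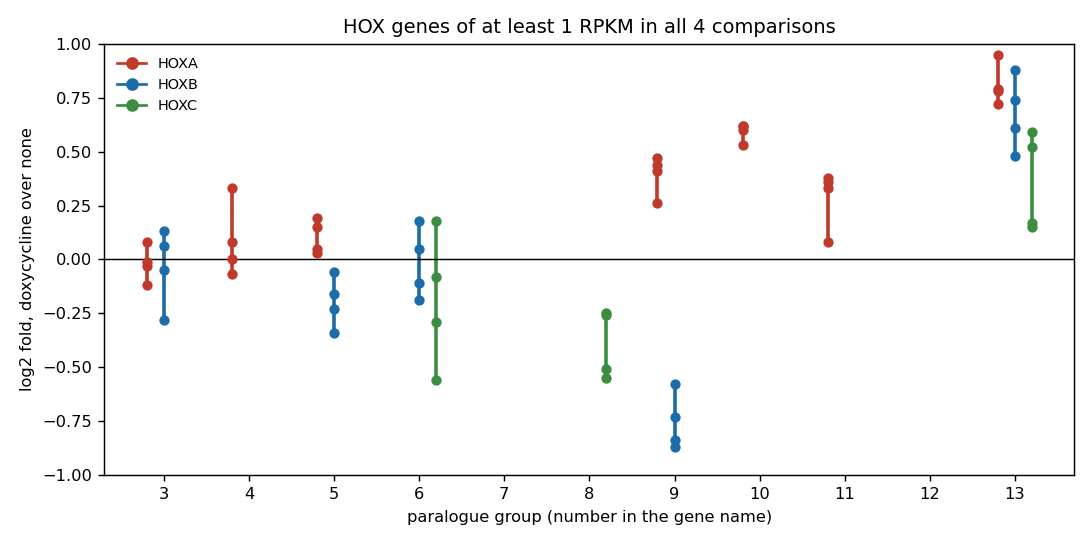
Log2 folds of doxycycline over none for HOX genes of at least 1 RPKM in all 4 comparisons, by the number in the gene name (horizontal axis) and cluster (colour); each point is a comparison and each bar spans the lowest to the highest of the 4. All points of group 13 shown lie above 0, and in group 9 HOXA9 lies at 0.26 to 0.47 and HOXB9 at -0.87 to -0.58. HOXD13, below 1 RPKM and lower with doxycycline in all 4 comparisons, is not shown.

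Genes that work with or on HOX clusters showed scattered calls, and 1 of them was called in all 4 comparisons. The other genes named here were named after their values were seen. Of 9 PBX, MEIS and PKNOX cofactor genes, whose proteins bind DNA beside HOX proteins, 8 were tested in all 4 comparisons and none was called in all by the authors' q. Of 17 Trithorax and H3K79 genes, the 1 called higher in all 4 was MLLT3, a subunit of the super elongation complex and a fusion partner of KMT2A in leukaemia. MLLT3 stood at 1.44 to 2.32 RPKM with doxycycline and 1.05 to 1.51 RPKM without it. In the authors' deposited table MLLT3 was 1.37-fold (I4, q = 0.00208) and 1.50-fold (H6, q = 1.33e-09) higher in experiment N and 1.52-fold (I4, q = 5.24e-07) and 1.54-fold (H6, q = 1.24e-06) higher in experiment B. By comparison, 2 of the 17 were called higher and 1 lower in I4 in experiment N, 1 and 3 in H6 in experiment N, 3 and 1 in I4 in experiment B and 1 and 2 in H6 in experiment B. Over all genes tested, 1.73% were called higher in all 4 and 1.97% lower. The shares in single comparisons ran from 3.63% to 7.46% higher and from 3.93% to 8.53% lower. The histone methyltransferase genes of the list moved in both directions. KMT2A, which keeps HOX genes active, fell in H6 to 4.11 RPKM with doxycycline, against 5.47 RPKM without it, in experiment N (q = 1.16e-07 in the authors' deposited table). In experiment B it fell in H6 to 8.01 RPKM with doxycycline, against 10.8 RPKM without it (q = 9.58e-07 in the authors' deposited table). KMT2C rose in I4 by 1.20-fold in experiment N and 1.15-fold in experiment B in the authors' deposited table. KMT2B fell in both clones in experiment N, and KMT2D fell in H6 in experiment N. The other calls of the list were MEN1 (lower) and AFF4 (higher) in I4 in experiment B and DOT1L (lower) in H6 in experiment B.

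Of 25 Polycomb genes, 4 were called higher and 2 lower in I4 in experiment N, where the shares over all genes were 7.18% and 8.53%. In H6 in experiment N 0 were called higher and 1 lower (6.57% and 7.07% of all genes), in I4 in experiment B 3 and 3 (7.46% and 6.59%) and in H6 in experiment B 1 and 2 (3.63% and 3.93%). Their median log2 fold in the authors' deposited table lay between -0.02 and 0.08. JARID2, an accessory subunit of Polycomb repressive complex PRC2, fell in 3 comparisons, by 1.22-fold (I4) in experiment N and by 1.19-fold (I4) and 1.20-fold (H6) in experiment B. BMI1, a PRC1 subunit, rose by 1.20-fold in both clones in experiment B. PHC1, also of PRC1, fell in H6 by 1.39-fold in experiment N and 1.36-fold in experiment B, and CBX2 fell in I4 by 1.24-fold in experiment N and 1.23-fold in experiment B. The others were each called in 1 comparison. PHF19, PCGF2, CBX7 and PHC2 rose in I4 in experiment N, and SUZ12 and CBX6 rose and PCGF1 fell in I4 in experiment B.

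None of 8 CTCF and cohesin genes was called in all 4 comparisons, beside 1.73% of all genes called higher in all 4 and 1.97% lower. The cohesin genes SMC1A and SMC3 fell in both clones in experiment N, by 1.14-fold to 1.21-fold, and STAG2 and NIPBL rose in I4 in experiment B, by 1.17-fold each. Of 14 retinoid and CDX genes, 8 were tested in all 4 comparisons and none was called in all. In lists this short, none called in all 4 is near the shares over all genes. The retinoic acid receptor gene RARG fell in I4, by 1.18-fold in experiment N and 1.33-fold in experiment B, and RARA fell in H6 in experiment N by 1.16-fold. CYP26B1, whose enzyme degrades retinoic acid, fell in I4 by 1.53-fold in experiment N and 1.54-fold in experiment B. CRABP2, a retinoic acid binding protein gene, rose in I4 in experiment N by 1.22-fold, and DHRS3, a retinal reductase gene, rose in H6 by 1.19-fold in experiment N and 1.22-fold in experiment B. All of these folds are from the authors' deposited table.

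Of the 9 genes, HOXA7 differed most between untreated H6 and I4. Untreated HOXA7 was at 0.709 RPKM in H6 and 0.391 RPKM in I4 in experiment N (a ratio of 1.81), and at 0.653 RPKM in H6 and 0.340 RPKM in I4 in experiment B (1.92). With doxycycline its H6 over I4 ratio was 1.30 (experiment N) and 1.43 (experiment B). The other 8 members had untreated H6 over I4 ratios from 0.83 to 1.27 in experiment N and from 0.80 to 1.16 in experiment B. HOXA5 had the lowest ratio in both experiments, at 1.90 RPKM in H6 and 2.28 RPKM in I4 in experiment N, and 1.44 RPKM in H6 and 1.79 RPKM in I4 in experiment B. Over 10321 genes of at least 1 RPKM the median ratio was 1.02 in each experiment. These ratios compare group means set in separate comparisons and carry no test.

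**Figure D4:**
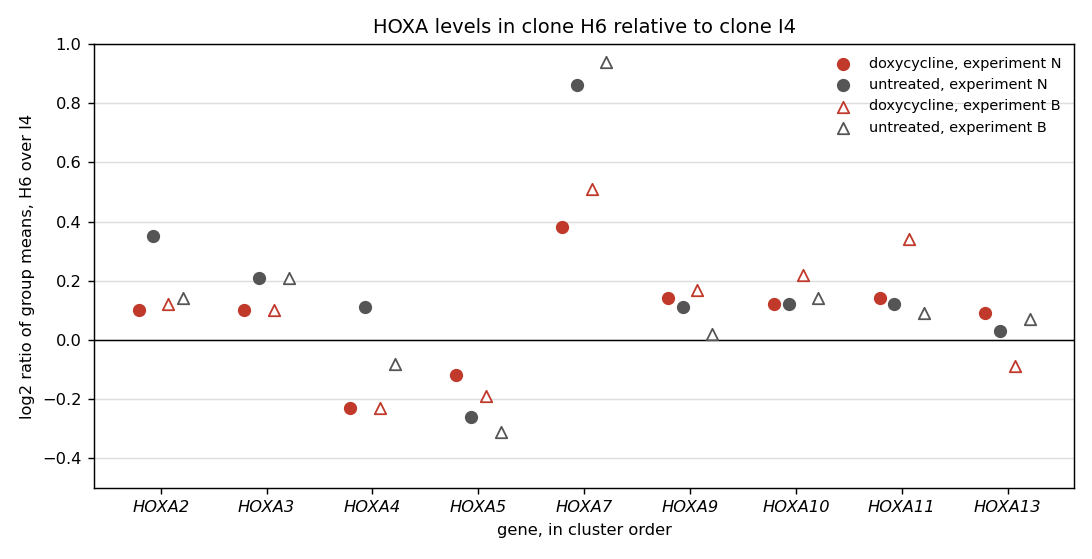
Log2 ratio of group means in clone H6 over clone I4 for the 9 HOXA genes in cluster order, with doxycycline (red) and untreated (grey), in experiment N (filled circles) and experiment B (open triangles). Untreated HOXA7 stands at 0.86 and 0.94, and the other genes lie between -0.31 and 0.35.

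The 7 HOXA genes of at least 1 RPKM in all comparisons (HOXA3, HOXA4, HOXA5, HOXA9, HOXA10, HOXA11 and HOXA13) were averaged into a profile of centred log2 levels over the 8 groups, and the Euclidean distance of each of 10321 genes from it was taken. The 5 nearest genes outside the cluster were GULP1 (distance 0.167), ZNF362 (0.170), SPOCK3 (0.197), ST3GAL4 (0.202) and C17orf58 (0.204), beside a median distance of 0.906 over all genes. The 7 members themselves lay at 0.189 (HOXA9) to 0.871 (HOXA13), so the profile is closest to HOXA9. In untreated cells the profile stood at -0.06 (I4) and -0.00 (H6) in experiment N and at -0.30 (I4) and -0.28 (H6) in experiment B. With doxycycline it stood at 0.31 (I4) and 0.34 (H6) in experiment N and at -0.03 (I4) and 0.02 (H6) in experiment B. Nearness to it thus reflects the difference between experiments as well as that with doxycycline. The log2 folds of GULP1 in the authors' deposited table were 0.44 (I4) and 0.35 (H6) in experiment N and 0.37 (I4) and 0.34 (H6) in experiment B.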

How the data were processed

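Poly(A)-selected RNA was sequenced from 23 libraries. Per the labels' protocols, experiment N used a kit that keeps both strands and experiment B a strand-specific one. Per the submitters' processing notes the build was hg38; no source used here names the aligner, counter, annotation or test. For 4 comparisons the authors deposited the higher group mean, a score taken here as RPKM. The header names no unit. A scale per exon length was read from the values, since level times GENCODE v29 exon length piled up at 1 step in 330 to 754 genes per comparison. That step was taken as 1 read and the scale as RPKM, which was not tested against other units per length. The depth was computed from that step and holds only if the scale is RPKM. The deposited signed fold, recorded as a score because it runs below -1, was put on the log2 scale, and the deposited adjusted p-value (q) was used at a threshold of 0.05. No count test was possible on group means, so the planned models of counts were not run.

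The members and gene lists were chosen with earlier results of these data known. All 9 members are named. Genes named by rule are the neighbours, the 3 most abundant genes of the HOXC and HOXD clusters, list members called in all 4 comparisons, and the 5 nearest profiles. The HOXB genes and the other list members named were chosen after their values were seen. A few listed genes are not reported here. Names were matched to GENCODE v29 for 21346 of 21463 rows (99.5%). Promoter sequences are from RefSeq (GRCh38.p14); 8 of the 9 members matched, and HOXA5 did not. Python 3.11.15, pandas 2.3.3, numpy 2.4.6 and matplotlib 3.10.9 were used. The calculations were tested on simulated data.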

Additional observations from a re-analysis of the deposited data

How the results depend on the processing

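Counts of called HOXA genes, medians and single folds were recomputed under other settings. These were q under 0.01, q under 0.1, a level of at least 1 RPKM and an absolute log2 fold of at least 0.32. Folds were also centred on the median of genes of at least 1 RPKM, or computed with a pseudocount of 0.5 RPKM. Every count of calls stayed within 1.5 times its value. The fall of HOXA7 in H6 in experiment N was lost at q under 0.01 and at 1 RPKM, and HOXA9 in I4 in experiment B was lost at the minimum fold. The median log2 fold in H6 in experiment B was 0.33 over members of at least 1 RPKM, against 0.15 over all 9, because HOXA2 and HOXA7 leave the list. Of 72 single folds recomputed, 71 kept their direction, which these settings could hardly change. A pseudocount added to both means cannot turn a fold round, and centring moved log2 folds by at most 0.008. The direction of the folds was therefore not put to a test here. HOXA4 in H6 in experiment N, at -0.00, became 0.002 when centred. The median untreated H6 over I4 log2 ratio, 0.12 in experiment N and 0.09 in experiment B, moved by less than 0.1.

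Leaving out replicates was not run, because the table holds no value per library. No paired analysis was possible because the same table holds only group means. Low depth limits HOXA7 and HOXA2 most, and the lower mean of each pair is approximate.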

Other observations

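All 9 HOXA genes except HOXA13 were lower in untreated cells in experiment B than in experiment N in both clones, by differing amounts. Untreated HOXA3 stood at 2.34 RPKM in experiment B and 3.59 RPKM in experiment N in I4 (a ratio of 0.65), and at 2.71 RPKM in experiment B and 4.16 RPKM in experiment N in H6 (0.65). The B over N ratios were 0.72 (I4) and 0.73 (H6) for HOXA10, 0.78 (I4) and 0.76 (H6) for HOXA5 and 0.85 (I4) and 0.74 (H6) for HOXA2. They were 0.87 (I4) and 0.92 (H6) for HOXA7, 0.92 (I4) and 0.86 (H6) for HOXA9, 0.99 (I4) and 0.87 (H6) for HOXA4 and 0.96 (I4) and 0.94 (H6) for HOXA11. HOXA13 had ratios of 0.98 (I4) and 1.02 (H6). The medians over the 10321 genes of at least 1 RPKM in all 4 comparisons were 1.02 (I4) and 1.00 (H6). Passage, library kit and sequencing centre differ together between the experiments and cannot be told apart.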
